A study of Mus musculus with 7 samples.

Results

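The miR-99/100 and miR-125 families were followed through 7 small RNA libraries of CD1 mouse testis. Members were taken by a rule on names, set with earlier results of these data known. The rule took every listed mature miRNA called miR-99a, miR-99b, miR-100, miR-125a or miR-125b. This gave 10 miRNAs beside 321 others in the list, with 5 from the 5p arm and 5 from the 3p arm of their hairpins. miR-100-3p was not analysed here. Levels are given as CPM, the reads of a miRNA scaled to 1000000 reads on listed miRNAs. A mean level of 10 CPM or more was reached by 9 of the 10 members and by 230 miRNAs in all, and miR-125a-3p was the member below it.

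All animals were CD1, an outbred strain, with no genetic change named. T6 and T10 were prepuberal testes taken without culture at 6.5 and 10.5 days post-partum (dpp), which other fields of the labels give as 6 and 10 days. T6-12K and T6-12A were 6.5 dpp testis explants kept for 12 days ex vivo at a gas-liquid interface over agarose, at 34 °C in 95% air and 5% CO2. T6-12K received KSR, a serum replacement, and T6-12A received AlbuMAX I, a lipid-rich bovine albumin. T10-12K and T10-12A were 10.5 dpp explants treated in the same manner, and TAD was adult testis of 2 months without culture. Each condition had 1 library, so no difference could be set against the spread between animals of 1 condition, no test was run and every interval covers counting error only. Libraries were whole tissue, in which fewer cells of a type and less RNA per cell cannot be told apart.

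A miRNA guides a silencing complex to messenger RNAs, and bases 2 to 8 of the mature strand, called the seed, dominate target choice. miR-99 and miR-100 are known for targeting Mtor, the kinase that couples nutrients to growth. miR-125 is the vertebrate relative of lin-4, the founding miRNA of worms, and is known for targeting Lin28, whose product blocks maturation of let-7. In mammals a miR-99/100 gene, a let-7 gene and a miR-125 gene lie together in each of several clusters.

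The mature 5p sequences, shown because the shared seed defines each family, were taken from RefSeq (GRCm38.p6), where 10 of 10 members were found. They are written 5′ to 3′ with the seed in capitals, first the miR-99/100 family and then the miR-125 family.
miR-99b-5p: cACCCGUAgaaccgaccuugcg
miR-99a-5p: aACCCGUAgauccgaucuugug
miR-100-5p: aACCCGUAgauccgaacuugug
miR-125a-5p: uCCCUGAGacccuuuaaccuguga
miR-125b-5p: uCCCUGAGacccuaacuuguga
Counting from 1 at the 5′ end and giving the base of the first-named miRNA first, miR-100-5p differed from miR-99a-5p by A16U alone. miR-99b-5p differed from miR-100-5p by C1A, A11U, C16A and C21U, all outside the seed. miR-125a-5p and miR-125b-5p shared their first 13 bases. With a single base between miR-100-5p and miR-99a-5p, reads of one could be counted for the other, and how such reads were assigned is not given in the sources used here.

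The 3p arms did not share the seeds of the 5p arms. The 3p arms of the miR-125b hairpins are shown because they tell the 2 loci apart, whereas miR-125b-5p is identical from both, and the miR-99 arms because both carry 1 seed.
miR-125b-1-3p: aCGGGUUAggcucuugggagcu
miR-125b-2-3p: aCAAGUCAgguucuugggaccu
miR-99b-3p: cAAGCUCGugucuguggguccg
miR-99a-3p: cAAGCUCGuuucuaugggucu
The hairpin of Mir125a, given here with both mature arms in capitals, shows how the 5p and 3p products are cut from 1 precursor.
Mir125a hairpin: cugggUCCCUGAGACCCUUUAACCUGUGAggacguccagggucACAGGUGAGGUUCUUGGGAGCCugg

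By GENCODE on GRCm38 the members came from 3 clusters on the plus strand. On chromosome 17, Mir99b (17830188 to 17830257) and Mirlet7e (17830352 to 17830444) were intronic to Spaca6, a protein-coding gene, and Mir125a (17830812 to 17830879) lay partly in one of its exons. This cluster spanned 692 bases. On chromosome 16, Mir99a (77598936 to 77599000), Mirlet7c-1 and Mir125b-2 (77646273 to 77646343) lay in introns of the host transcript Mir99ahg, over 47408 bases. On chromosome 9, Mir100 (41531425 to 41531504), Mirlet7a-2 and Mir125b-1 (41581926 to 41582002) lay in introns of the non-coding gene 3110039I08Rik, over 50578 bases. Other transcripts overlapped some of them. Mir125b-2 lay partly in an exon of C130023A14Rik, Mir125b-1 in an exon of Gm28119, Mir100 opposite an exon of the antisense Gm48742, and Mir99a opposite an intron of the antisense Gm11146.

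The libraries held between 1628770 (TAD) and 13397407 (T10) estimated reads on listed miRNAs. Both arms of miR-202, a miRNA of the gonad, were read in every library, with a summed level of 93.7 to 234 CPM. The spermatocyte and later germ cell list (miR-34c-5p, miR-34b-5p and miR-449a-5p) summed to 71.8 CPM in T6, 158 in T10, 593 to 1918 in the 4 cultured libraries and 25221 in TAD. The erythroid list lay between 445 CPM (T6-12A) and 2554 CPM (T6-12K). Of its 3 markers, miR-451a and miR-144-3p were listed at 0 in all 4 cultured libraries, where the sum was thus miR-486a-5p alone. The lowest number listed above 0 in those libraries was 5 reads, so that a listed 0 may stand for fewer reads than that. The endothelial list lay between 124 and 405 CPM and the epithelial list, with 5 of 6 markers listed, between 104 and 401. Leukocyte and striated muscle lists had 1 of 3 markers listed each, at 0 to 17.2 and 2.60 to 30.4 CPM. T6-12K stood apart through miR-10a-5p, at 28387 CPM against 4137 to 7185 in the other 6 libraries. Its part in the results was not tested. Counts without T6-12K are given only where the 4 cultured libraries are set against T6 and T10 together.

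miR-99b-5p was the most abundant member in every library. Its level was 33854 CPM in T6 and 27437 in T10 before culture, 16596 with KSR and 18916 with AlbuMAX I in culture from 6.5 dpp, 22703 with KSR and 23567 with AlbuMAX I in culture from 10.5 dpp, and 7579 in TAD. In CPM uncultured prepuberal testis was thus highest, adult testis lowest, and the 4 cultured libraries lay in between without reaching either. By rank among all listed miRNAs, mmu-miR-99b-5p stood between 4 and 19. No neighbours in this order had overlapping 95% counting intervals. With median-of-ratios or trimmed-mean (TMM) scaling the order differed: T10-12A was highest, just above T6, and T6-12K, T10-12K and T10-12A all stood above T10, while TAD remained lowest.

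miR-125a-5p was second among the members in every library. It stood at 11084 CPM in T6, with 6579 and 11121 in its cultures T6-12K and T6-12A, 9907 in T10, with 7307 and 9586 in its cultures T10-12K and T10-12A, and 4125 in TAD. In CPM TAD was again lowest, but the cultured libraries straddled the uncultured ones, and T6-12A and T6 had overlapping counting intervals at the top of the order. With median-of-ratios scaling T6-12K and T6-12A stood above T6, at log2 ratios of 0.23 and 0.44, and with TMM at 0.25 and 0.54. In both scalings all 4 cultured libraries stood above T10, and TAD remained lowest. The rank of mmu-miR-125a-5p ran from 10 to 26.

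miR-100-5p, the product of chromosome 9, had another order. Its level was 2215 CPM in T6 and 3494 in T10, 2320 (T6-12K) and 2750 (T6-12A) after culture from 6.5 dpp, 4467 (T10-12K) and 4339 (T10-12A) after culture from 10.5 dpp, and 2699 in TAD. In CPM the libraries of 10.5 dpp testis, cultured or not, were the highest, T6 was the lowest, and TAD overlapped T6-12A within counting error. This order did not hold in every scaling, since T6-12K and T6-12A stood above T10 with median-of-ratios and TMM scaling, and TAD was lowest in the values as deposited. miR-125b-5p, which can come from chromosome 9 or 16, stood at 1302 CPM in T6 and 1704 in T10 before culture, 1341 with KSR and 1856 with AlbuMAX I in culture from 6.5 dpp, 1793 with KSR and 1967 with AlbuMAX I in culture from 10.5 dpp, and 1080 in TAD. miR-99a-5p, from chromosome 16, stood at 1221 CPM in T6, with 868 and 1150 in its cultures T6-12K and T6-12A, 1378 in T10, with 1345 and 1369 in its cultures T10-12K and T10-12A, and 646 in TAD. Both were lowest in TAD.

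Highest over lowest level across the 7 libraries was 4.47 for miR-99b-5p, 2.70 for miR-125a-5p, 2.02 for miR-100-5p, 1.82 for miR-125b-5p and 2.13 for miR-99a-5p. Over the 230 miRNAs at a mean level of 10 CPM or more, the median of this ratio was 5.05, with quartiles of 3.01 and 10.7. Of these 230, 9 varied less in CPM than miR-125b-5p and 19 less than miR-100-5p, against 103 for miR-99b-5p. These counts were not made in other scalings. For miR-100-5p and miR-125b-5p the log2 ratio of T6-12K over T6 was 0.07 and 0.04 in CPM. With median-of-ratios scaling it was 1.05 and 1.03.

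The 3p arms were read at far lower levels. miR-125b-2-3p stood at 143 CPM in T6, with 99.8 and 121 in its cultures T6-12K and T6-12A, 147 in T10, with 126 and 100 in its cultures T10-12K and T10-12A, and 84.1 in TAD. miR-125b-1-3p stood at 103 CPM in T6, with 115 and 119 in its cultures, 144 in T10, with 142 and 106 in its cultures (KSR before AlbuMAX I in each case), and 73.1 in TAD. Both were lowest in TAD, where the interval of miR-125b-2-3p, 71.2 to 99.4 on 137 reads, overlapped those of T6-12K and T10-12A. In CPM their highest levels overlapped within counting error, in T10 and T6 for miR-125b-2-3p and in T10 and T10-12K for miR-125b-1-3p. With median-of-ratios or TMM scaling a culture was highest for both arms, as each culture then stood above both prepuberal testes. With median-of-ratios the log2 ratio of T6-12K over T6 was 0.47 for miR-125b-2-3p and 1.15 for miR-125b-1-3p. For miR-125b-2-3p that of T10-12A over T10 was only 0.02. miR-99b-3p stood at 114 CPM in T6 and 63.7 in T10, 34.9 (T6-12K) and 43.3 (T6-12A) after culture from 6.5 dpp, 56.1 (T10-12K) and 34.3 (T10-12A) after culture from 10.5 dpp, and 25.8 in TAD. In CPM it was highest in T6 and lowest in TAD, as its 5p partner was. Its interval in TAD, 19.1 to 34.9, overlapped those of T6-12K and T10-12A. For miR-99a-3p the levels were 31.0 CPM in T6 and 30.2 in T10, 15.3 (T6-12K), 17.0 (T6-12A), 19.1 (T10-12K) and 17.4 (T10-12A) in culture, and 22.7 in TAD. The 4 cultured libraries were thus lowest in CPM, as held for 23.5% of the 230 miRNAs. The interval of TAD, 16.5 to 31.3 on 37 reads, overlapped those of all 4. T6-12K and T10-12K stood above TAD with median-of-ratios scaling, and all 4 did with TMM and in the values as deposited. miR-125a-3p lay between 4.30 in TAD and 14.7 in T6, on 7 to 197 reads.

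**Figure D1:**
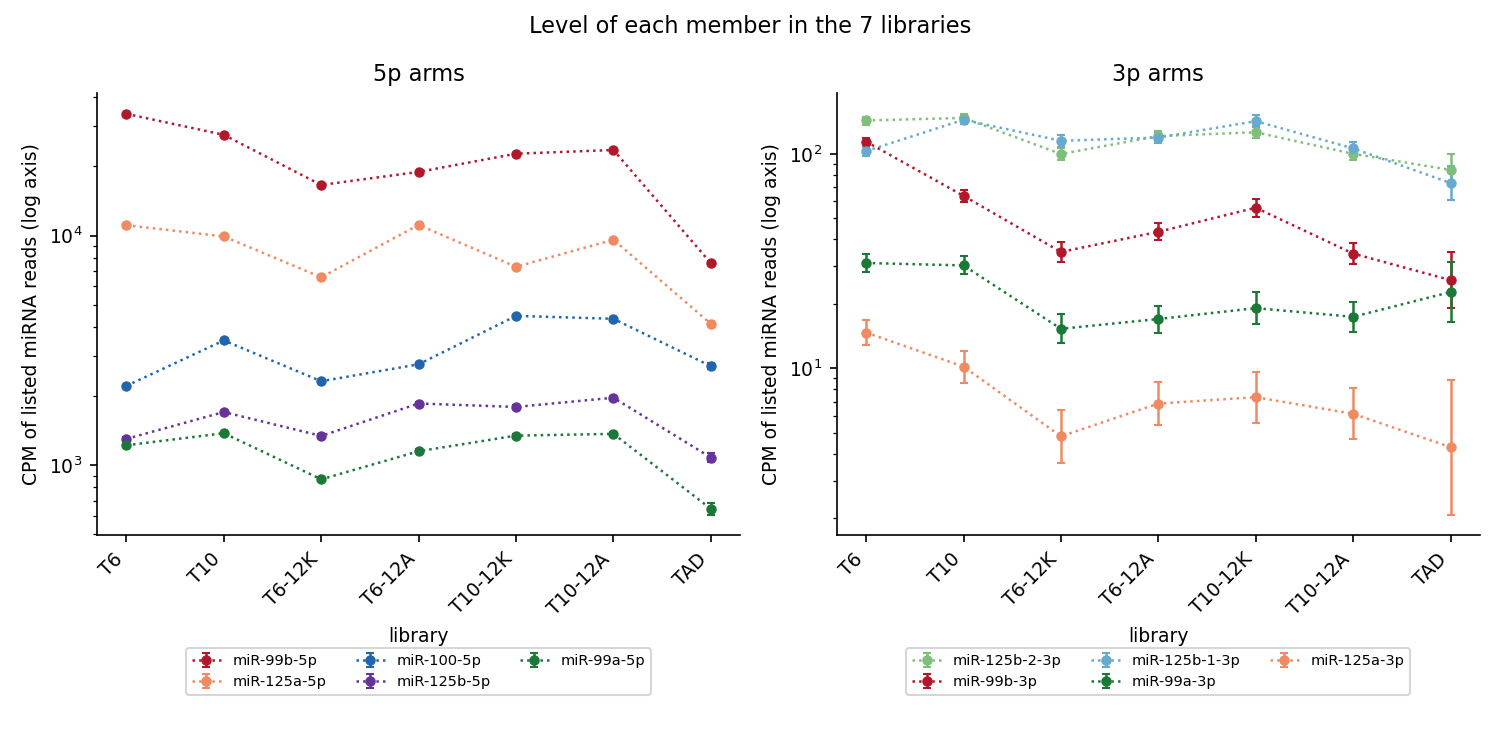
Level of the 5p arms (left) and 3p arms (right) in CPM on a log axis, 1 point per library with its 95% Wilson counting interval, and dotted lines that only join the points of 1 miRNA. miR-99b-5p lay between 7579 and 33854 CPM, above every other member in each library, and miR-125a-3p was the lowest member throughout.

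The summed 5p arms of the miR-99/100 family took 37290 CPM in T6 and 32309 in T10 before culture, 19784 with KSR and 22816 with AlbuMAX I in culture from 6.5 dpp, 28516 with KSR and 29274 with AlbuMAX I in culture from 10.5 dpp, and 10924 in TAD. Those of the miR-125 family took 12387 CPM in T6 and 11611 in T10, 7920 (T6-12K) and 12977 (T6-12A) after culture from 6.5 dpp, 9099 (T10-12K) and 11553 (T10-12A) after culture from 10.5 dpp, and 5205 in TAD. The highest level was 3.41 times the lowest (95% counting interval 3.36 to 3.47) for miR-99/100, in T6 and TAD, and 2.49 times (2.44 to 2.55) for miR-125, in T6-12A and TAD. With median-of-ratios or TMM scaling the miR-99/100 sum was highest in T10-12A in place of T6.

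The make-up of each family, which does not depend on how libraries are scaled, differed between conditions. miR-99b-5p supplied 90.8% of the miR-99/100 5p reads in T6 and 84.9% in T10 before culture, 83.9% with KSR and 82.9% with AlbuMAX I in culture from 6.5 dpp, 79.6% with KSR and 80.5% with AlbuMAX I in culture from 10.5 dpp, and 69.4% in TAD. miR-100-5p supplied 5.94% in T6, with 11.7% and 12.1% in its cultures T6-12K and T6-12A, 10.8% in T10, with 15.7% and 14.8% in its cultures T10-12K and T10-12A, and 24.7% in TAD. Adult testis thus had the lowest share of the chromosome 17 product and the highest share of miR-100-5p, and the 4 cultured libraries lay between T10 and TAD for both. miR-99a-5p kept a small share, from 3.28% in T6 to 5.91% in TAD. Within the miR-125 family, miR-125a-5p supplied 89.5% in T6 and 85.3% in T10, 83.1% (T6-12K) and 85.7% (T6-12A) after culture from 6.5 dpp, 80.3% (T10-12K) and 83.0% (T10-12A) after culture from 10.5 dpp, and 79.3% in TAD, and miR-125b-5p the rest. T6 was highest and TAD lowest here too.

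**Figure D2:**
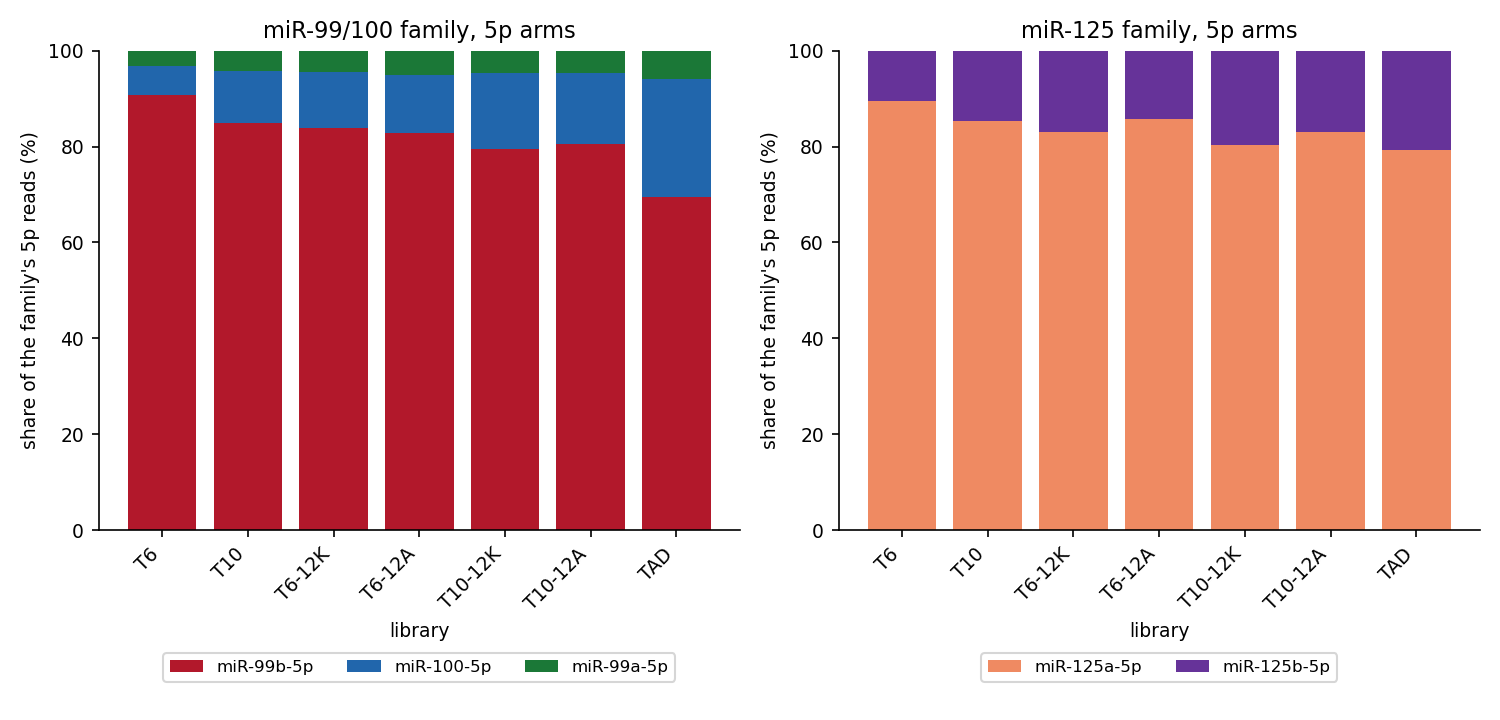
Share of the family's 5p reads (%) taken by each member in each library, stacked to 100%, for miR-99/100 (left) and miR-125 (right). The miR-99b-5p share was 90.8% in T6 and 69.4% in TAD, and the miR-100-5p share 5.94% and 24.7%.

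The 3 miRNAs of the chromosome 17 cluster did not keep 1 ratio. Reads of miR-99b-5p per read of miR-125a-5p numbered 3.05 in T6 and 2.77 in T10 before culture, 2.52 with KSR and 1.70 with AlbuMAX I in culture from 6.5 dpp, 3.11 with KSR and 2.46 with AlbuMAX I in culture from 10.5 dpp, and 1.84 in TAD, a spread of 1.83 times. The let-7 miRNA that lies between them, a suppressor of growth genes, was a different case, and its sequence is given for comparison with let-7a-5p.
let-7e-5p: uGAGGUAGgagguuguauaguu
let-7a-5p: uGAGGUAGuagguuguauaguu
let-7e-5p differed from let-7a-5p by G9U alone, so reads of these relatives could also be miscounted. let-7e-5p stood at 6948 CPM in T6, with 789 and 959 in its cultures T6-12K and T6-12A, 3129 in T10, with 784 and 557 in its cultures T10-12K and T10-12A, and 1221 in TAD. In CPM all 4 cultured libraries were below both prepuberal testes and below TAD, as held for 23.5% of the 230 miRNAs. The order against TAD depended on scaling. With median-of-ratios scaling T6-12K stood above TAD, at log2 ratios to T6 of -2.15 and -2.34. With TMM and in the values as deposited, T6-12K and T6-12A both stood above TAD. miR-99b-5p per let-7e-5p was 4.87 in T6 and 8.77 in T10, 21.0 (T6-12K) and 19.7 (T6-12A) after culture from 6.5 dpp, 29.0 (T10-12K) and 42.3 (T10-12A) after culture from 10.5 dpp, and 6.21 in TAD. miR-125a-5p per let-7e-5p likewise ran from 1.60 in T6 and 3.17 in T10 to between 8.34 and 17.2 in culture and 3.38 in TAD. Both ratios were higher in each cultured library than in any of the 3 uncultured ones, without overlap, and needed no scaling between libraries. Both have let-7e-5p as denominator, which was lower in culture than the median of the 230 miRNAs was. Its log2 CPM ratios were -3.14 and -2.86 in T6-12K and T6-12A over T6, beside medians of -1.07 and -0.52. They were -2.00 and -2.49 in T10-12K and T10-12A over T10, beside -0.61 and -0.63. Such ratios to let-7e-5p need not be particular to the members, and how many other miRNAs had them was not counted.

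**Figure D3:**
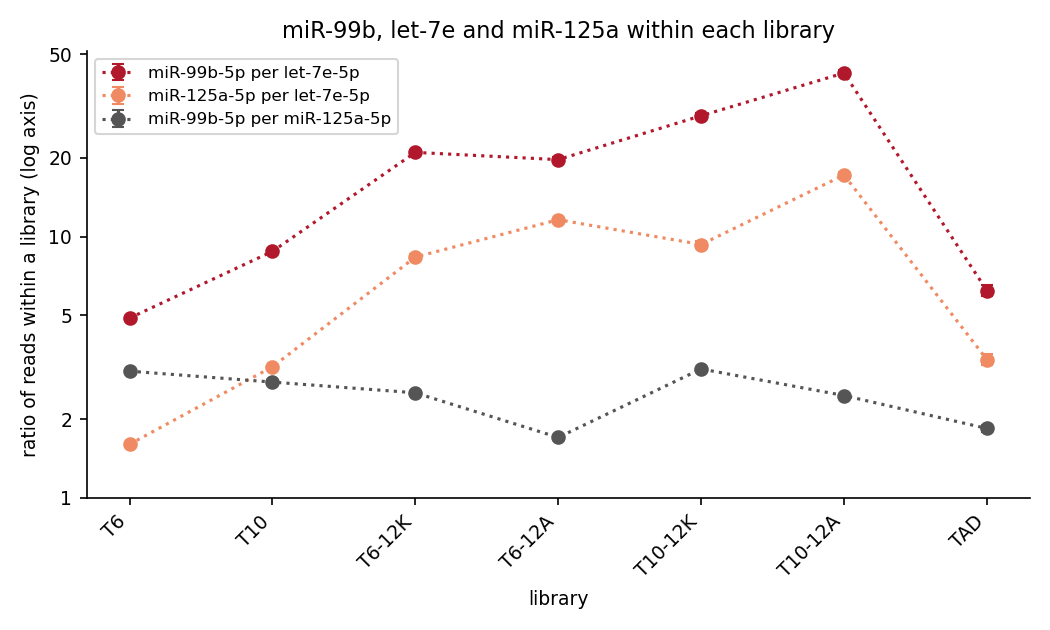
Ratios of reads within a library between miRNAs of the chromosome 17 cluster, on a log axis, with 95% counting intervals mostly smaller than the points. Per read of let-7e-5p, miR-99b-5p had 19.7 to 42.3 reads in culture against 4.87 to 8.77 without culture, while the ratio of miR-99b-5p to miR-125a-5p stayed between 1.70 and 3.11.

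Comparisons between libraries depend on scaling. The median log2 CPM ratio over the 230 miRNAs was -0.04 for T10 over T6, -0.10 and -0.14 for TAD over T6 and T10, -1.07 and -0.52 for T6-12K and T6-12A over T6, -0.61 and -0.63 for T10-12K and T10-12A over T10, 0.66 for T6-12A over T6-12K and -0.08 for T10-12A over T10-12K. Members are therefore read beside these medians. A difference of at least 2-fold in CPM, in both pairs where 2 libraries are compared with another, is used below to count members.

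Between the prepuberal ages, the chromosome 9 products miR-100-5p and miR-125b-1-3p and the shared miR-125b-5p were higher in T10, and the chromosome 17 products lower. The log2 ratio of T10 over T6 was 0.66 (0.64 to 0.68) for miR-100-5p, 0.39 for miR-125b-5p and 0.49 for miR-125b-1-3p, and it was -0.30 (-0.31 to -0.30) for miR-99b-5p, -0.16 for miR-125a-5p and -0.83 (-0.96 to -0.71) for miR-99b-3p. These 6 directions held in all 4 scalings. For miR-99a-5p, at 0.17, miR-125b-2-3p, at 0.05, and miR-99a-3p, at -0.04, the direction turned in at least 1 scaling. None of the 9 members reached 2-fold, against 10.0% of the 230 miRNAs higher and 2.17% lower. With TMM 1 member, miR-99b-3p at -1.07, did so, against 6.52% of the 230 lower. Of the miRNAs called, 82.1% were higher in T10 in CPM, 54.5% with TMM and 96.4% in the values as deposited.

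In adult testis 3 of 9 members were at least 2-fold lower than in both T6 and T10, and 0 were higher, against 27.0% and 17.4% of the 230. In the values as deposited 7 of 9 were lower, against 43.5%. The log2 ratios to T6 and T10 were -2.16 (-2.19 to -2.13) and -1.86 (-1.88 to -1.83) for miR-99b-5p. They were -1.43 (-1.46 to -1.39) and -1.26 (-1.30 to -1.23) for miR-125a-5p and -2.14 (-2.62 to -1.70) and -1.30 (-1.79 to -0.86) for miR-99b-3p, which rested on 42 reads in TAD. These are the chromosome 17 products, and all 3 kept their direction in each scaling. miR-99a-5p was less reduced, at -0.92 and -1.09, as was miR-125b-5p, at -0.27 and -0.66. Its 3p arms stood at -0.76 and -0.81 for miR-125b-2-3p and at -0.49 and -0.98 for miR-125b-1-3p, below both prepuberal libraries in all 4 scalings. miR-100-5p had log2 ratios of 0.29 to T6 and -0.37 to T10, and the first of these turned to -0.38 in the values as deposited. For miR-99a-3p, at -0.45 and -0.41, both intervals included 0. The spermatocyte and later germ cell list, at 25221 CPM in TAD against 71.8 and 158, differed together with these levels, and its part in them was not tested. Among all called miRNAs 39.2% were higher in TAD in CPM and 15.3% in the values as deposited.

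In culture from 6.5 dpp, 1 of 9 members, miR-99b-3p, was at least 2-fold lower in both T6-12K and T6-12A than in T6, and 0 were higher, against 24.3% and 9.57% of the 230. Its log2 ratios were -1.70 (-1.87 to -1.53) and -1.39 (-1.54 to -1.24), and stayed negative but did not reach 2-fold in both libraries with median-of-ratios (-0.71 and -0.96) or TMM scaling, where 0 members were called lower, against 9.57% and 8.70% of the 230. miR-99b-5p had log2 ratios of -1.03 (-1.04 to -1.02) in T6-12K and -0.84 (-0.85 to -0.83) in T6-12A, close to or below the medians of -1.07 and -0.52, and at -0.04 and -0.41 with median-of-ratios scaling. miR-125a-5p was at -0.75 (-0.77 to -0.74) in T6-12K, a direction that turned to 0.23 with median-of-ratios scaling, and at 0.00 (-0.01 to 0.02) in T6-12A. miR-100-5p, at 0.07 and 0.31, and miR-125b-5p, at 0.04 and 0.51, were higher than in T6 in all 4 scalings. With median-of-ratios scaling these log2 ratios were 1.05 and 0.74 for miR-100-5p and 1.03 and 0.94 for miR-125b-5p. With TMM they were 1.07 and 0.85, and 1.05 and 1.05, so that miR-125b-5p was then 2-fold higher in both libraries, against 17.8% of the 230. The log2 ratios of miR-125b-1-3p, at 0.16 and 0.21, were positive in all 4 scalings and those of miR-99a-3p, at -1.02 and -0.87, negative, whereas those of miR-99a-5p (-0.49 and -0.09) and miR-125b-2-3p (-0.52 and -0.24) turned with median-of-ratios scaling. For miR-99a-3p in T6-12K the log2 ratio was only -0.03 with median-of-ratios and -0.01 with TMM. Among called miRNAs the higher share was 28.2% in CPM, 63.3% with median-of-ratios and 67.2% with TMM.

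In culture from 10.5 dpp, 0 of 9 members were at least 2-fold higher or lower in both T10-12K and T10-12A, against 10.0% and 25.2% of the 230. The log2 ratio of miR-100-5p to T10 was 0.35 (0.33 to 0.38) and 0.31 (0.29 to 0.33), and it was positive in all 4 scalings. It was 0.90 and 0.88 with median-of-ratios, 1.12 and 1.08 with TMM and 0.02 and 0.01 in the values as deposited. With TMM miR-100-5p was thus 2-fold higher in both libraries, against 19.1% of the 230. That of miR-99b-5p was -0.27 and -0.22 in CPM and turned to 0.28 and 0.35 with median-of-ratios scaling. miR-125a-5p was at -0.44 and -0.05 and turned to 0.11 and 0.52. With AlbuMAX I, miR-99b-3p at -0.89 and miR-99a-3p at -0.80 kept their direction in all 4 scalings, but were only at -0.13 and -0.03 with TMM. With KSR, at -0.18 and -0.66, both turned in at least 1. The higher share of called miRNAs was 28.4% in CPM, 50.0% with median-of-ratios, 63.8% with TMM and 17.1% in the values as deposited.

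When the 4 cultured libraries were set against T6 and T10 without regard to age, 4 of 9 members (miR-99b-5p, miR-125b-2-3p, miR-99b-3p and miR-99a-3p) were lower without overlap in CPM, against 53.5% of the 230, and 0 were higher, against 13.0%. With median-of-ratios scaling 0 members were lower and 5 were higher, against 24.3% and 26.1% of the 230, and with TMM 0 were lower and 5 were higher, against 17.0% and 28.7%, so that the direction of these counts depended on the scaling. Without T6-12K, 1 member (miR-125b-5p) was higher and 4 were lower in CPM, against 17.0% and 55.2%.

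**Figure D4:**
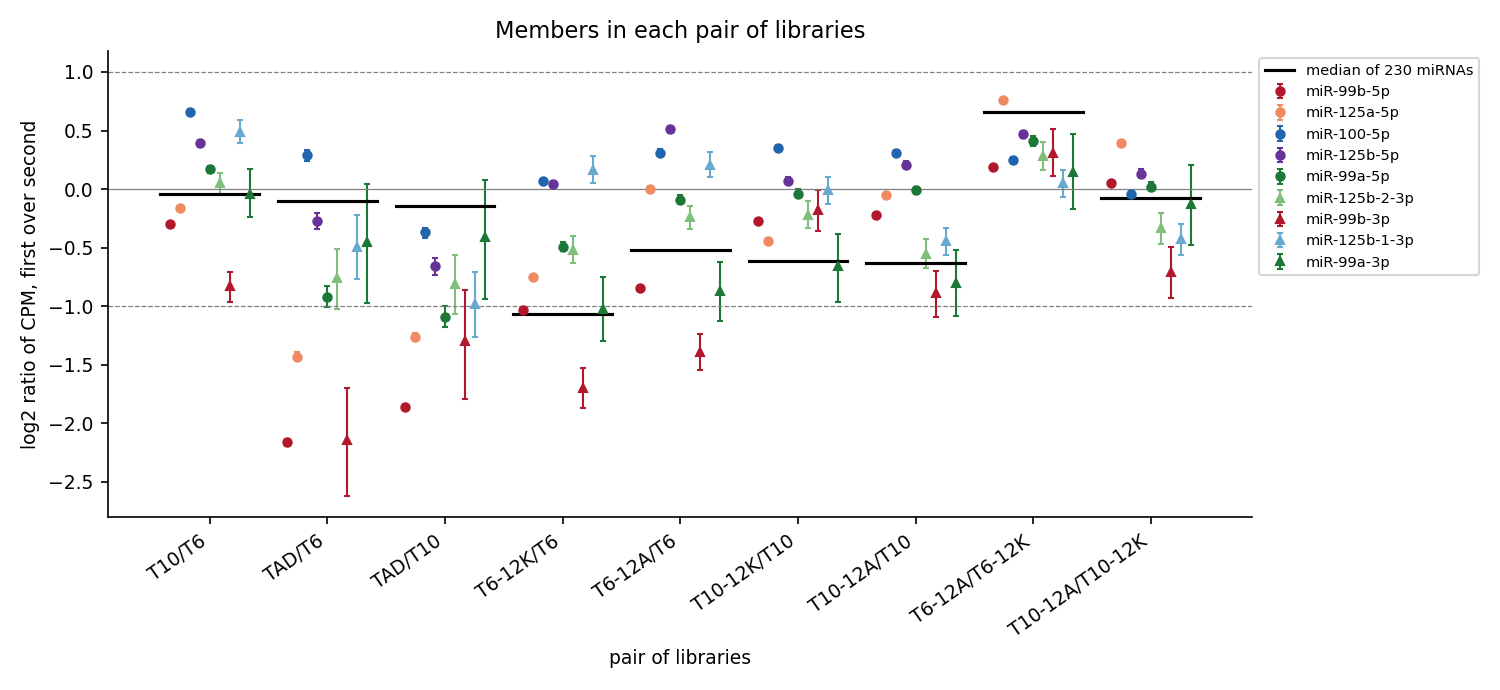
Log2 ratio of CPM for the 9 members at a mean level of 10 CPM or more, in 9 pairs of libraries, with exact 95% counting intervals. Black bars give the median of 230 miRNAs and dashed lines the 2-fold limits. The chromosome 17 products lie lowest in TAD (miR-99b-5p at -2.16 and -1.86), and the median over all miRNAs itself shifts in the cultured pairs, as far as -1.07.

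Between the supplements, among members only miR-125a-5p kept the same direction at both ages in every scaling, a condition not counted over the 230 miRNAs. It was higher with AlbuMAX I than with KSR by a log2 ratio of 0.76 (0.74 to 0.77) at 6.5 dpp and 0.39 (0.38 to 0.41) at 10.5 dpp, or 0.20 and 0.41 with median-of-ratios scaling. At 6.5 dpp this was 0.10 above the median of the 230 miRNAs, with 129 of them below it, and at 10.5 dpp it was 0.47 above the median, with 191 below it. miR-99b-5p, from the same cluster, was at 0.19 and 0.05 in CPM, and the first turned to -0.37 with median-of-ratios scaling. At 6.5 dpp the ratios of all 9 members lay between 0.05 and 0.76, where 83.0% of the 230 were above 0, and for the 8 other than miR-125a-5p the direction turned in at least 1 scaling. At 10.5 dpp, where scalings differed little, the ratios of the members lay between -0.71 (-0.93 to -0.49, miR-99b-3p) and 0.39. No member reached 2-fold at either age, against 26.1% of the 230 higher and 3.04% lower at 6.5 dpp and 2.17% higher and 3.91% lower at 10.5 dpp. Of the miRNAs called at 6.5 dpp, 89.6% were higher with AlbuMAX I in CPM, 55.0% with median-of-ratios and 68.3% with TMM.

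The ratio of 5p to 3p reads of a hairpin can report on which strand is kept, but arms may also differ in ligation and in reads shared with relatives. For miR-99b it was 298 in T6 and 431 in T10 before culture, 475 with KSR and 437 with AlbuMAX I in culture from 6.5 dpp, 405 with KSR and 687 with AlbuMAX I in culture from 10.5 dpp, and 294 in TAD. It ran from 752 in T6 to 1622 in T6-12A for miR-125a, and from 28.4 in TAD to 78.7 in T10-12A for miR-99a. The 5p arm thus had most of the reads in every library. Highest over lowest ratio was 2.34, 2.16 and 2.77 for the 3 hairpins, against a median of 2.77 over 47 hairpins with both arms read in every library. Reads of miR-125b-1-3p (chromosome 9) per read of miR-125b-2-3p (chromosome 16) ran from 0.719 in T6 to 1.15 in T6-12K, so that neither 3p arm made up the bulk of the pair in any library.

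Of the fixed list of relatives and cluster neighbours, 7 of 14 were listed and 6 reached a mean of 10 CPM. miR-351-5p, from chromosome X, shared the seed of miR-125.
miR-351-5p: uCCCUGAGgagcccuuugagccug
It was at 2012 CPM in T6, with 631 and 702 in its cultures T6-12K and T6-12A, 1787 in T10, with 1114 and 1261 in its cultures T10-12K and T10-12A, and 307 in TAD, highest in T6 and lowest in TAD. miR-351-3p lay between 0 and 6.44 CPM. let-7c-5p ran from 15869 CPM in T6 to 5415 in T6-12K, and let-7a-5p from 20544 in T6 to 7567 in T6-12K. miR-10b-5p, whose seed resembles that of miR-99/100 without matching it, was the most abundant of the list, from 311633 CPM in TAD to 544136 in T6-12K. Of the 6, only let-7e-5p was at least 2-fold lower in T10 than T6, against 2.17% of the 230. let-7e-5p and miR-351-5p were lower in TAD and in both cultures from 6.5 dpp, against 27.0% and 24.3%. For miR-351-5p the call in those cultures was lost with median-of-ratios (-0.69 and -1.09) and TMM scaling (-0.66 and -0.98). let-7e-5p was also lower in both cultures from 10.5 dpp, against 25.2% of the 230, and miR-10a-5p was lower in T6-12A than T6-12K, against 3.04%. 0 of 6 were at least 2-fold higher in any of these comparisons, against 9.57% to 26.1% of the 230. The median of the 6 mean log2 ratios was -1.05 for TAD, where that of the 230 was -0.06, and -1.07 for culture from 6.5 dpp, where that of the 230 was -0.82. In culture from 10.5 dpp it was -0.56 beside -0.66. let-7e-5p itself had log2 ratios of -3.14 and -2.86 in T6-12K and T6-12A over T6, and of -2.00 and -2.49 in T10-12K and T10-12A over T10, negative in all 4 scalings.

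Likeness of pattern was measured as the root mean square difference in log2 CPM over the 7 libraries, each miRNA centred on its own mean, among 114 other miRNAs whose mean level was 100 CPM or more. The 5 most like miR-99b-5p were let-7i-5p at 0.251, miR-199a-5p at 0.296, miR-351-5p at 0.299, miR-98-5p at 0.301 and miR-322-5p at 0.324, with a median of 0.910 over the 114. The 5 most like miR-125a-5p were let-7i-5p at 0.169, miR-27b-3p at 0.195, miR-199a-3p at 0.249, miR-199b-3p at 0.252 and miR-322-5p at 0.286, with a median of 0.816. let-7i-5p headed both lists and miR-322-5p closed both. The cluster partners miR-99b-5p and miR-125a-5p differed by 0.316, whereas let-7e-5p differed by 1.09 from the first and 1.14 from the second. The member miR-99a-5p, from chromosome 16, differed from them by 0.344 and 0.264. All 5 miRNAs listed for miR-125a-5p were closer to it than its cluster partner miR-99b-5p was. All these values share the same 7 libraries and their scaling.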

How the data were processed

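Small RNAs of 7 mouse testis libraries had been sequenced, 1 per condition. For each of 331 mature miRNAs the authors deposited a signal per library. Their methods name trimming, alignment with Bowtie to mm10 and to miRBase, and removal of miRNAs with fewer than 50 reads, and the submitters' processing notes name FastQC, HTSeq and DESeq without a role. In each library the deposited signal was the number of reads multiplied by 1 number, the worth of 1 read (0.615 in T6 to 3.19 in TAD), whose origin is not given in the sources used here. That number was estimated as the largest step giving whole multiples, to a tolerance of 0.1 reads. Division by it gave whole reads for 100% of the values below 10000 reads. Reads were expressed as CPM of the listed miRNAs, and miRNAs whose mean reached 10 CPM were compared.

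Shares have 95% Wilson intervals and ratios exact conditional binomial 95% intervals. Reads at 0 were set to the lowest read number of that library in ratios. No model was fitted, an additive one of starting age and treatment included, and no test was run. Scripts were tested on simulated data. Alternatives were median-of-ratios and TMM scaling (30% of M and 5% of A trimmed), the values as deposited, no filter or a mean of 100 CPM, a 1.5-fold threshold, a pseudocount of 1 CPM, 1 library of a pair alone and sums without miR-10b-5p and miR-143-3p. Comparing the share of called miRNAs and of non-overlap across scalings and without T6-12K was added after the data were seen.

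All members were named. Those whose mean reached 10 CPM were given by library and the other by its range. The listed relatives were named, and the 5 miRNAs most like miR-99b-5p and miR-125a-5p by a fixed measure. Members, lists (gonad, spermatocyte and later germ cell, erythroid, leukocyte, endothelial, striated muscle, epithelial, relatives and cluster neighbours) and comparisons were chosen with earlier results of these data known. Sequences came from RefSeq, in which 288 of the 331 names were found, and gene positions from GENCODE mouse release 21. Tools were Python 3.11.15 with scipy 1.17.1, pandas 2.3.3, numpy 2.4.6 and, for plots, matplotlib 3.10.9.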

Additional observations from a re-analysis of the deposited data

Results flagged for a closer look

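In CPM, 3 members were higher with AlbuMAX I than with KSR at one starting age and lower at the other, beyond counting error. The log2 ratio at 6.5 dpp exceeded that at 10.5 dpp by 1.02 for miR-99b-3p (0.31 and -0.71), by 0.61 for miR-125b-2-3p (0.28 and -0.33) and by 0.29 for miR-100-5p (0.25 and -0.04). Each value compares single libraries, and the difference between ages was not tested. With median-of-ratios scaling the ratios at 6.5 dpp were -0.25, -0.28 and -0.31, so that both ages had the same direction. No condition had enough libraries to look for a library standing apart from its replicates.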

How the results depend on the processing

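No ratio called 2-fold in CPM changed sign under an alternative. Of 116 alternative values of the summary results 87 stayed within their limits and 29 moved, and of 324 for single members 136 stayed and 188 moved. The direction of a member's ratio was the same in all 4 scalings for 50 of 81 ratios.

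Counts of members at least 2-fold apart moved as follows, each with the share of all compared miRNAs in the same direction. With median-of-ratios scaling, 0 members were lower in both cultures from 6.5 dpp (9.57%). With TMM, 1 was lower in T10 than T6 (miR-99b-3p, 6.52%), 1 was higher (miR-125b-5p, 17.8%) and 0 were lower (8.70%) in the cultures from 6.5 dpp, and 1 was higher in those from 10.5 dpp (miR-100-5p, 19.1%). In the values as deposited 7 members were lower in TAD (43.5%). At 1.5-fold, 1 was higher (20.9%) and 1 lower (11.3%) in T10, 5 were lower in TAD (34.3%), 3 in culture from 6.5 dpp (43.5%) and 1 in culture from 10.5 dpp (45.2%). At that threshold 1 was higher with AlbuMAX I at 6.5 dpp (miR-125a-5p, 54.8%) and 1 lower at 10.5 dpp (miR-99b-3p, 11.3%). In culture from 6.5 dpp, 2 members were lower without the filter (32.0%), 0 at a mean of 100 CPM (16.5%) and 3 in T6-12K alone (53.5%). Against T6 and T10, 5 members were higher without overlap in culture with median-of-ratios (26.1%), 5 with TMM (28.7%) and 1 without T6-12K (17.0%), and 0 were lower with median-of-ratios (24.3%) and 0 with TMM (17.0%).

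Highest over lowest level of the miR-99/100 sum was 3.47 with median-of-ratios, 4.04 with TMM, 5.40 as deposited and 3.62 without miR-10b-5p and miR-143-3p, with T10-12A in place of T6 as the highest library in all but the values as deposited. For the miR-125 sum it was 2.98, 3.77, 4.16 and 3.32. The cause of these shifts was not tested.

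The labels give no replicate numbers to pair, and no fit with the starting age as a block was made. TAD had the fewest reads, which left miR-99b-3p and miR-125a-3p there on 42 and 7 reads.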
